A study of Mus musculus with 4 samples.

Results

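The genes described here encode the enzymes that activate fatty acids and break them down in mitochondria and peroxisomes, together with the enzymes of ketone body metabolism and the kinase gene *Pdk4*. They were chosen by name, and all 37 were found among the 36144 gene names of the count table. All 37 had a mean normalised count of at least 50 over the 4 libraries, a level reached by 11650 genes, which are the genes they are compared with below. Gene expression was measured by poly-A RNA-seq in mouse colonic organoids (colonoids) at passage 3, either untreated or given 2 mM sodium butyrate. The groups were untreated at 48 h, butyrate at 48 h, untreated at 72 h and butyrate at 72 h, with 1 library in each. The labels give a male WT mouse of 24 weeks as the source, whereas the study's text names a Hes1-GFP reporter line. All cultures grew in crypt medium with EGF, Noggin, R-spondin, the GSK3 inhibitor CHIR99021 and the ROCK inhibitor Y-27632. Culture and treatment cannot be told apart where each condition is a single library, and no p-value was computed. Organoids mix stem, absorptive and secretory cells, and fewer cells of a type and less RNA per cell cannot be told apart in such bulk samples.

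Fatty acids are burned after activation to acyl-CoA in the cytosol or mitochondria. Long-chain acyl groups then cross the inner mitochondrial membrane as carnitine esters, while short-chain acids such as butyrate enter without carnitine. Each turn of β-oxidation runs through a dehydrogenase, a hydratase, a second dehydrogenase and a thiolase, and electrons from the first step pass to the respiratory chain through the electron transfer flavoprotein. Butyrate made by gut bacteria is the main fuel of colonocytes in the intact colon, and very long or branched acids are shortened in peroxisomes.

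Total counts per library ran from 20790225 to 24207840. Genes of the mitochondrial genome took 14.1% to 18.4% of them. DESeq2 size factors set the scale of each library, and a log2 fold change is the difference of log2(normalised count + 1). The brackets after a log2 fold change hold its exact 95% interval for the pair of counts, which covers counting error only and not the spread between cultures. Members were deep enough for a median half-width of 0.10 at 48 h and 0.12 at 72 h on the log2 scale. Epithelial markers were high in every library, with summed normalised counts of 144061 to 159581 over 8 genes. Summed mesenchymal markers stayed at 15.1 to 21.8, with *Col3a1* and *Lum* at 0 counts.

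Most members had their highest level in the butyrate library at 48 h. Together the 37 genes gave 62923 normalised counts without and 70462 with butyrate at 48 h, against 62643 and 59277 at 72 h. The butyrate library at 48 h was the highest of the 4 for 23 of the 37, against 31.9% of the 11650 genes. The butyrate library at 72 h was the lowest for 15 members, against 24.9% of genes. Members differed in direction at both times: the log2 fold change with butyrate was below 0 for 13 of the 37 at 48 h, against 53.1% of all genes, and above 0 for 13 at 72 h, against 49.9%.

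**Figure D1:**
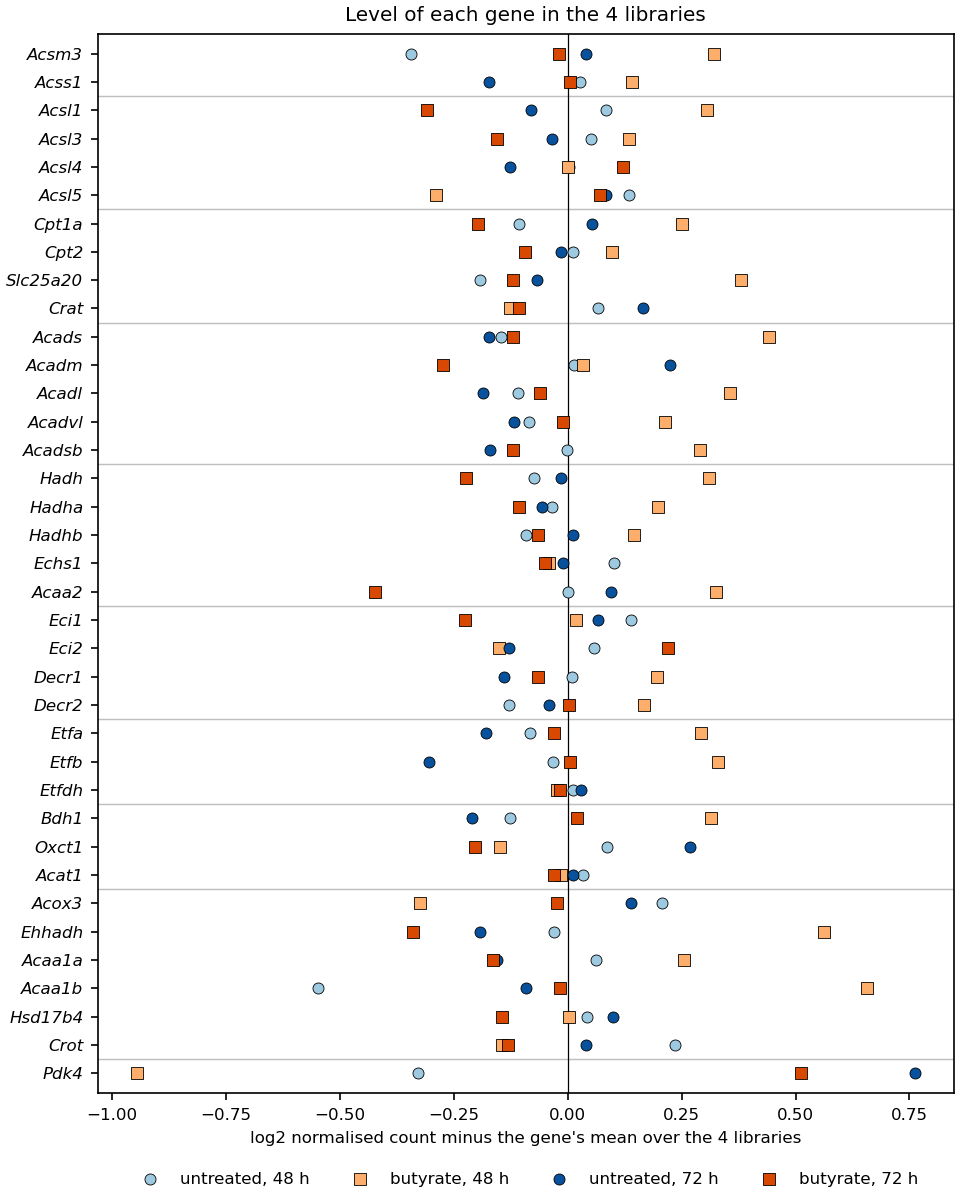
Level of each of the 37 genes in the 4 libraries, as the log2 normalised count minus the gene's own mean over the libraries. Lines separate the functional groups, circles are untreated and squares are butyrate-treated colonoids, and the light squares of butyrate at 48 h lie rightmost for 23 genes.

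At 48 h the median log2 fold change of the members with butyrate was 0.19, against −0.03 for all genes tested. It was above 0 for 24 of the 37 members, and for 46.9% of all genes. The values ran from −0.60 in *Pdk4* to 1.19 in *Acaa1b*, with quartiles at −0.05 and 0.36. Most shifts were small. A change of at least 1.5-fold upwards, a log2 fold change of 0.58, was reached by 4 members, *Acsm3*, *Acads*, *Ehhadh* and *Acaa1b*. Of all genes 8.94% were as much higher, so this count of members lies near the background. A change of the same size downwards was seen in 1 member, *Pdk4*, against 6.43% of all genes. With a pseudocount of 5 in place of 1 *Pdk4* did not reach it. *Acads* and *Ehhadh* lie just inside the threshold, with log2 fold changes of 0.588 and 0.592, and *Slc25a20* lies just outside, with 0.571. With TMM scaling, or with totals taken without the mitochondrial genome, 2 members in place of 4 reached it, *Acsm3* and *Acaa1b*. Replacing the untreated 48 h library by the untreated 72 h library again gave 4, *Acads*, *Etfb*, *Ehhadh* and *Acaa1b*, without *Acsm3*.

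At 72 h the median log2 fold change was −0.05, against −0.0005 for all genes. With total count scaling the members' median was 0.0006 and that of all genes 0.05. The values ran from −0.52 in *Acaa2* to 0.35 in *Eci2*, and 30 of the 37 lay within 0.25 of 0, against 62.2% of all genes. No member was at least 1.5-fold higher, a size reached by 5.88% of all genes, and none was as much lower, against 5.13%. No member was past 1.5-fold in the same direction at both times, where 3.48% of all genes were higher and 1.62% lower.

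The counting interval resolves smaller differences, and it narrows with depth. Members were therefore set beside the 7496 genes with a mean normalised count of 400 to 7000, a range that holds 35 of the 37 and leaves out *Acaa1b* and *Pdk4*. At 48 h the interval lay above 0 for 20 of the 35, against 28.2% of these genes, and below 0 for 7, against 41.6%. At 72 h it lay above 0 for 8, against 27.0%, and below 0 for 12, against 32.5%. The members' shares thus stood apart from those of other genes at 48 h and lay close to them at 72 h. At both times it was above 0 for 5 genes, *Acadl*, *Acadvl*, *Etfa*, *Etfb* and *Bdh1*, against 12.0%. Against the untreated 48 h library the 72 h values of these 5 lay between 0.04 and 0.15. It was below 0 at both times for 4 genes, *Crat*, *Oxct1*, *Acox3* and *Crot*, against 18.8%. Both of these counts lie near or under their background. With total count scaling the 72 h intervals of *Acox3* and *Crot* included 0.

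**Figure D2:**
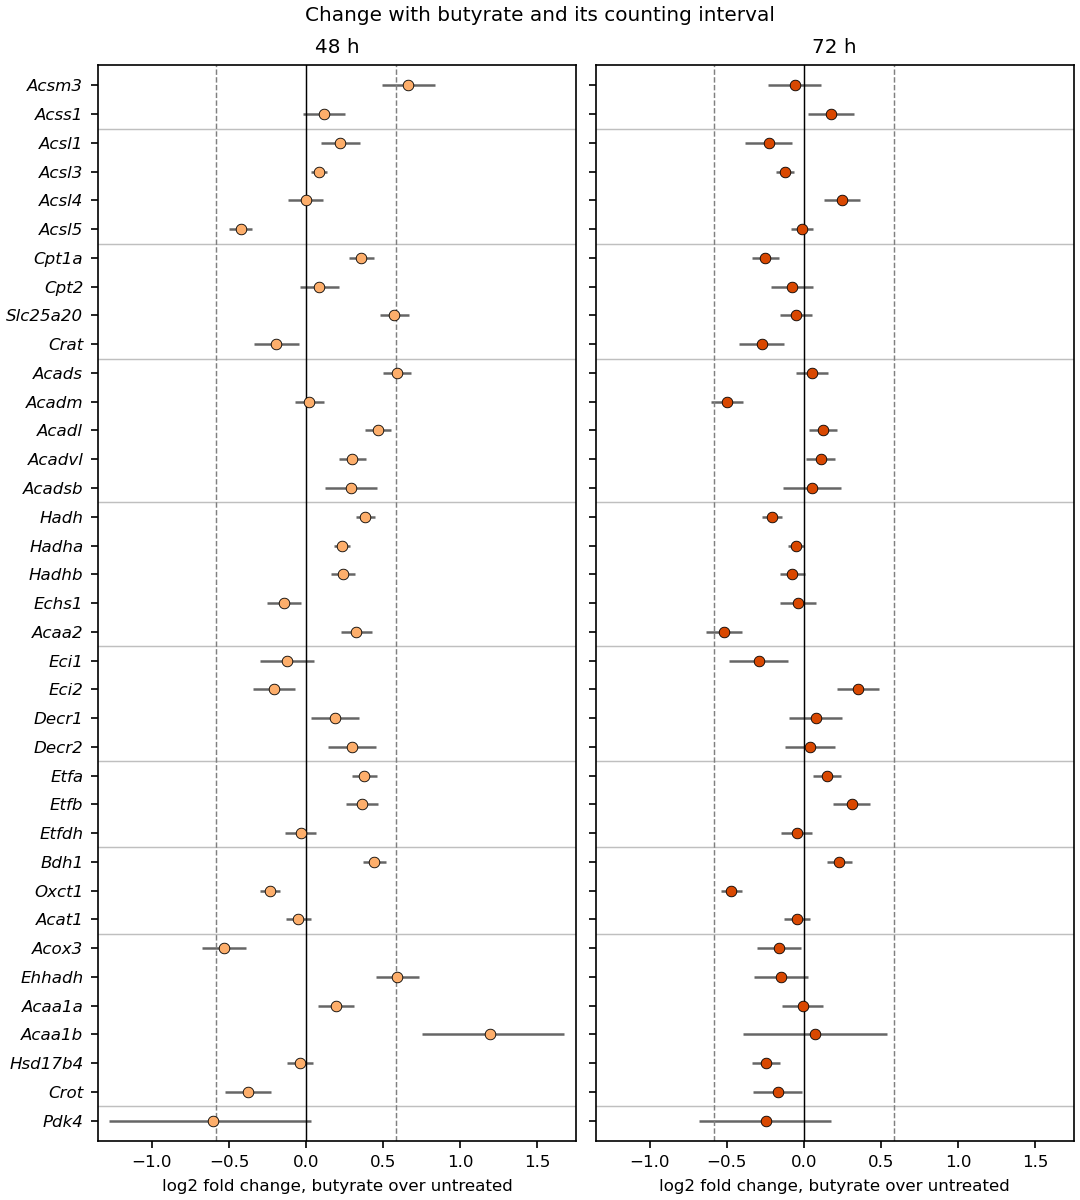
Log2 fold change of butyrate over untreated for each gene at 48 h and at 72 h, with horizontal bars for the exact 95% counting interval and dashed lines at 1.5-fold. At 48 h 4 genes lie right of the upper line and *Pdk4* left of the lower line, and at 72 h all 37 lie between the lines.

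Activation of short- and medium-chain acids was represented by 2 genes. *Acsm3* encodes a mitochondrial medium-chain acyl-CoA synthetase that also accepts butyrate, and lies on chromosome 7 from 119760923 to 119787513 on the plus strand (GRCm38). It had 441 counts without and 788 with butyrate at 48 h, against 596 and 523 at 72 h. Butyrate over untreated was 0.66 (0.49 to 0.84) on the log2 scale at 48 h, then −0.06 (−0.23 to 0.11) at 72 h. The butyrate library at 48 h was the highest and the untreated library at 48 h the lowest. The untreated level at 72 h was itself 0.38 (0.20 to 0.56) above that at 48 h on the log2 scale. *Acss1*, a mitochondrial acetyl-CoA synthetase, gave 0.11 (−0.02 to 0.25) at 48 h and 0.18 (0.03 to 0.33) at 72 h. Against the untreated 48 h library its 72 h value was −0.02. The sequence before the *Acsm3* start site (RefSeq, GRCm38.p6, chr7:119760673-119760922, plus strand) is shown because this gene had the largest change at 48 h among members with over 100 counts in every library. Capitals here and below mark the GC box GGGCGG and the CCAAT box, read on either strand (as CCGCCC and ATTGG).
Acsm3: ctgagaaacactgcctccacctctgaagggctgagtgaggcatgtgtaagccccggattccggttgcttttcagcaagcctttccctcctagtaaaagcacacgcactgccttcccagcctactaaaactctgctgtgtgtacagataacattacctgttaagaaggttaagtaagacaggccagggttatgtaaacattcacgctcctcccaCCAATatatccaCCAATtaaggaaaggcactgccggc
Its window holds 2 CCAAT boxes and no GC box.

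Long-chain acids are activated by the acyl-CoA synthetases *Acsl1*, *Acsl3*, *Acsl4* and *Acsl5*, and these did not move together. *Acsl1* was higher at 48 h, with 0.22 (0.09 to 0.35), and lower at 72 h, with −0.23 (−0.38 to −0.08). *Acsl3*, a form bound to the endoplasmic reticulum and lipid droplets, followed the same course with 0.08 (0.03 to 0.14) and −0.12 (−0.18 to −0.06). *Acsl5*, the member of this group known for high expression in intestine, was lower at 48 h. It had 3378 counts without and 2835 with butyrate, which gave −0.43 (−0.50 to −0.35). At 72 h the counts were 3373 and 3058, which gave −0.01 (−0.08 to 0.06). *Acsl4*, which prefers arachidonate, gave −0.00 (−0.12 to 0.11) at 48 h and 0.25 (0.13 to 0.37) at 72 h. In CPM (counts scaled to the library total) per kb of exon, *Acsl3* had the highest level of the 4 synthetases, at 54.3 to 67.9, followed by *Acsl5* at 27.6 to 36.9. *Acsl1* and *Acsl4* stayed between 7.51 and 11.7 on that scale.

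The carnitine shuttle was represented by 4 members. *Cpt1a* encodes the outer membrane carnitine palmitoyltransferase, the regulated entry step for long-chain acids, and lies on chromosome 19 from 3322334 to 3385733 on the plus strand. Its counts were 2155 without and 3112 with butyrate at 48 h, against 2495 and 1918 at 72 h. The butyrate library was thus the highest of the 4 at 48 h and the lowest at 72 h. Butyrate over untreated was 0.36 (0.28 to 0.44) on the log2 scale at 48 h, then −0.25 (−0.34 to −0.16) at 72 h. With the untreated libraries exchanged the values of *Cpt1a* were 0.20 and −0.09. *Slc25a20*, the carnitine-acylcarnitine translocase of the inner membrane, had 1413 counts without and 2367 with butyrate at 48 h, against 1595 and 1407 at 72 h. The other 3 libraries of this gene lay close together, and butyrate over untreated was 0.57 (0.48 to 0.67) on the log2 scale at 48 h, then −0.05 (−0.16 to 0.05) at 72 h. *Cpt2*, which releases the acyl group inside the mitochondrion, gave 0.08 (−0.04 to 0.21) and −0.08 (−0.21 to 0.06). *Crat*, which transfers short acyl groups and acetyl units to carnitine, was lower at both times, with −0.19 (−0.34 to −0.05) and −0.27 (−0.42 to −0.13). The sequence before *Slc25a20* (chr9:108661886-108662087, plus strand, up to the annotated start of the gene) is shown as that of the member of this group with the largest change at 48 h.
Slc25a20: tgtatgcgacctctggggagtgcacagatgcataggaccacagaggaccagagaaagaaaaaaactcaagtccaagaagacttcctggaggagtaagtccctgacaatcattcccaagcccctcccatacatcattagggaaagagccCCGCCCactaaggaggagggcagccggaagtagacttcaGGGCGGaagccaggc
This window holds 2 GC boxes and no CCAAT box.

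Acyl-CoA dehydrogenases catalyse the first step of the β-oxidation turn, each for a range of chain lengths. *Acads*, the short-chain enzyme that oxidises butyryl-CoA, lies on chromosome 5 from 115110299 to 115119346 on the minus strand. It had 1535 counts without and 2601 with butyrate at 48 h, against 1561 and 1481 at 72 h. The 3 libraries other than butyrate at 48 h lay close together, with 1541 to 1600 normalised counts against 2360. Butyrate over untreated was 0.59 (0.50 to 0.68) on the log2 scale at 48 h, then 0.05 (−0.05 to 0.16) at 72 h. A difference of *Acads* with butyrate at 72 h was not detectable at this depth.
Acads: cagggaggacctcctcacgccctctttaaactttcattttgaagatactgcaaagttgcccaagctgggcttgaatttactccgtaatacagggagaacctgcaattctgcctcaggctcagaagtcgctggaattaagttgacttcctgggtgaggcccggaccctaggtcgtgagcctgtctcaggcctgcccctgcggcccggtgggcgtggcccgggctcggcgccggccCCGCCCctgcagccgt
The sequence printed for *Acads* precedes its start site (chr5:115119347-115119596, minus strand) and is shown because its enzyme acts on the activated form of butyrate. It holds 1 GC box and no CCAAT box.

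The neighbouring chain lengths differed from *Acads*. *Acadm*, the medium-chain enzyme, gave 0.02 (−0.08 to 0.12) at 48 h and −0.50 (−0.60 to −0.40) at 72 h, with 2016 counts without and 1305 with butyrate at the later time. With the untreated libraries exchanged they were −0.19 and −0.29, since untreated *Acadm* was 0.21 (0.12 to 0.30) higher at 72 h than at 48 h on the log2 scale. *Acadl*, the long-chain enzyme, was higher at both times, with 0.47 (0.38 to 0.55) and 0.12 (0.03 to 0.22). *Acadvl*, the very-long-chain enzyme of the inner membrane, was also higher at both, with 0.30 (0.21 to 0.39) and 0.11 (0.01 to 0.20). *Acadsb*, which acts on short branched chains, gave 0.29 (0.13 to 0.46) and 0.05 (−0.14 to 0.24). Of the 5 dehydrogenases, 4 had an interval above 0 at 48 h, against 28.2% of genes in the depth range, and the medium-chain gene was the exception. In the butyrate library at 48 h the levels in CPM per kb were 65.4 for *Acadl*, 57.5 for *Acads*, 48.1 for *Acadvl*, 38.8 for *Acadm* and 4.35 for *Acadsb*. In the untreated library of that time *Acads*, *Acadm* and *Acadvl* lay at 38.1, 38.1 and 39.0 on the same scale.

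**Figure D3:**
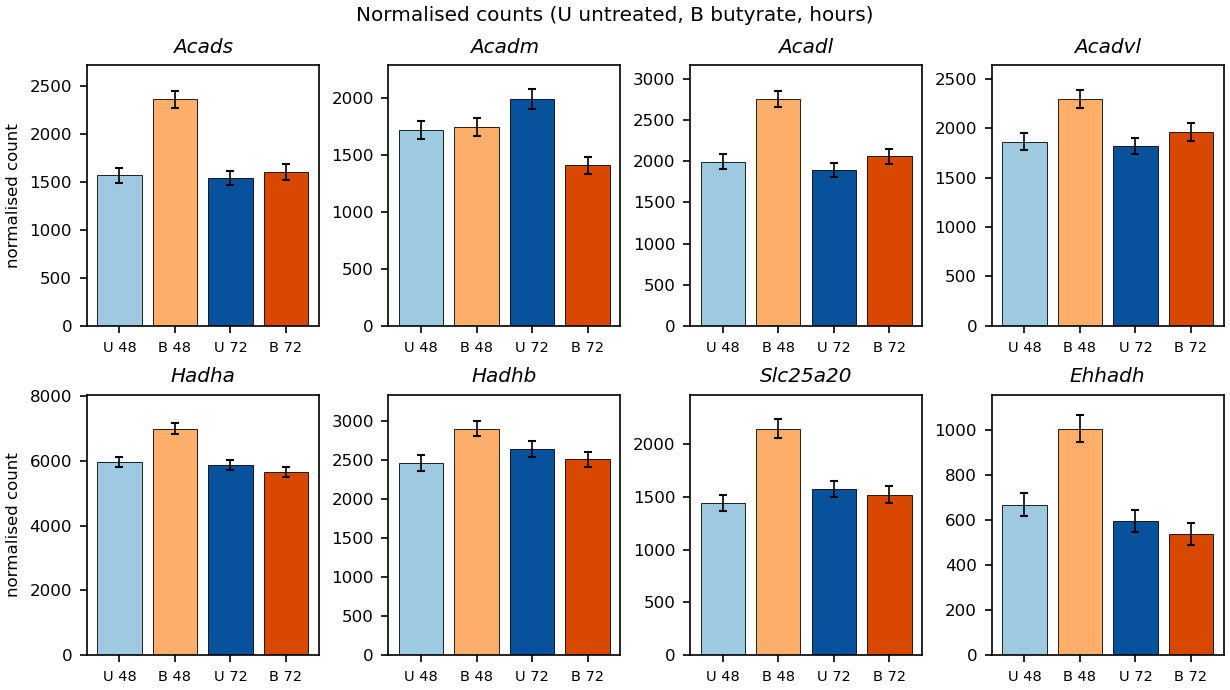
Normalised counts of 4 acyl-CoA dehydrogenase genes, both trifunctional protein genes, *Slc25a20* and *Ehhadh* in the untreated (U) and butyrate (B) libraries at 48 h and 72 h. Bars start at 0, whiskers are the 95% counting error of the count in its normal approximation, and *Acads* stands at 2360 in butyrate at 48 h against 1541 to 1600 elsewhere.

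The hydratase, hydroxyacyl dehydrogenase and thiolase steps follow, carried out by *Hadh*, *Echs1*, *Acaa2* and the mitochondrial trifunctional protein. *Hadha* and *Hadhb* encode its α and β subunits and lie head to head on chromosome 5. *Hadha* runs from 30118304 to 30155162 on the minus strand, and *Hadhb* from 30155248 to 30184593 on the plus strand. The annotated genes are 85 bases apart, and that shared stretch (chr5:30155163-30155247, plus strand) is printed because both genes are transcribed away from it.
Hadhb and Hadha: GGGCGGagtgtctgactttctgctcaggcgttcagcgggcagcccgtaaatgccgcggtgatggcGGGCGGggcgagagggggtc
It holds 2 GC boxes and no CCAAT box. *Hadha* had 5833 counts without and 7725 with butyrate at 48 h, against 5956 and 5251 at 72 h. *Hadhb* had 2408 counts without and 3199 with butyrate at 48 h, against 2676 and 2320 at 72 h. The pair had nearly equal log2 fold changes, of 0.23 (0.18 to 0.28) and 0.24 (0.16 to 0.31) at 48 h. At 72 h they were −0.05 (−0.11 to 0.001) and −0.08 (−0.16 to 0.004). For *Hadhb*, 23.3% of the 31-base words of its transcripts also occur in other genes, mostly in *Gm13910*, so its count depends on how the reads were shared.

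*Hadh*, the short-chain hydroxyacyl-CoA dehydrogenase, had the highest level of all members in CPM per kb, from 87.8 to 130. Butyrate over untreated was 0.38 (0.33 to 0.44) on the log2 scale at 48 h, then −0.21 (−0.28 to −0.14) at 72 h, on 3264 to 5622 counts. *Acaa2*, the mitochondrial thiolase on chromosome 18, had the lowest value of any member at 72 h. Its counts were 1420 without and 2007 with butyrate at 48 h, against 1572 and 1003 at 72 h. The log2 fold change went from 0.33 (0.23 to 0.43) to −0.52 (−0.63 to −0.40), so the butyrate library was the highest at 48 h and the lowest at 72 h. *Echs1*, the short-chain enoyl-CoA hydratase, was slightly lower at 48 h, with −0.14 (−0.25 to −0.03), and gave −0.04 (−0.15 to 0.08) at 72 h.

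Auxiliary enzymes of unsaturated acids, which move or reduce double bonds before the chain can be shortened, went different ways. *Eci2*, an enoyl-CoA isomerase found in mitochondria and peroxisomes, was lower at 48 h, with −0.21 (−0.35 to −0.07), and higher at 72 h, with 0.35 (0.21 to 0.49). With the untreated libraries exchanged the values were −0.02 and 0.16, and 13.6% of its 31-base words occur in other genes. Its mitochondrial relative *Eci1* gave −0.12 (−0.30 to 0.05) and −0.29 (−0.48 to −0.10). The dienoyl-CoA reductases were higher at 48 h, with 0.19 (0.03 to 0.34) for the mitochondrial *Decr1* and 0.30 (0.14 to 0.45) for the peroxisomal *Decr2*. At 72 h their values were 0.08 (−0.10 to 0.25) and 0.04 (−0.12 to 0.20). *Eci1* and *Eci2* thus shared a sign at 48 h and differed at 72 h.

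The electron transfer flavoprotein takes up the electrons of every acyl-CoA dehydrogenase. *Etfa* and *Etfb*, its subunits, were higher with butyrate at both times, though at 72 h this depended on the untreated library. *Etfa* had 2075 counts without and 3034 with butyrate at 48 h, against 2012 and 2038 at 72 h, with log2 fold changes of 0.38 (0.29 to 0.46) and 0.15 (0.06 to 0.24). *Etfb* had 1303 counts without and 1886 with butyrate at 48 h, against 1117 and 1265 at 72 h, with 0.36 (0.26 to 0.46) and 0.31 (0.19 to 0.43). Against the untreated 48 h library the 72 h values were 0.05 for *Etfa* and 0.04 for *Etfb*, whose untreated level was lower at 72 h than at 48 h, with −0.27 (−0.39 to −0.16). For *Etfb* 49.9% of the 31-base words are shared with other genes, 47.3% with *Gm45233*, and for *Etfa* 10.8% are shared. *Etfdh*, which hands the electrons on to ubiquinone, had nearly level counts, with −0.04 (−0.13 to 0.06) and −0.05 (−0.15 to 0.06). Its 4 normalised counts lay between 1580 and 1640.

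Ketone body genes included 1 that was higher and 1 that was lower at both times. *Bdh1*, which interconverts acetoacetate and hydroxybutyrate, had 2439 counts without and 3732 with butyrate at 48 h, against 2384 and 2556 at 72 h. Its log2 fold changes were 0.44 (0.37 to 0.52) and 0.23 (0.15 to 0.31). *Oxct1*, the transferase that starts ketone body use, had 3646 counts without and 3492 with butyrate at 48 h, against 4284 and 2824 at 72 h. Its log2 fold changes were −0.23 (−0.30 to −0.17) and −0.47 (−0.54 to −0.40), and both butyrate libraries lay below both untreated libraries after scaling. *Acat1*, the acetoacetyl-CoA thiolase, gave −0.05 (−0.13 to 0.03) and −0.04 (−0.13 to 0.04).

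Peroxisomal members ran from −0.53 to 1.19 at 48 h and from −0.24 to 0.07 at 72 h. *Ehhadh*, the L-bifunctional enzyme and a textbook target of the receptor PPARα, lies on chromosome 16 from 21761287 to 21787807 on the minus strand. It had 652 counts without and 1108 with butyrate at 48 h, against 603 and 498 at 72 h. Its level with butyrate was the highest of the 4 at 48 h and the lowest at 72 h, with log2 fold changes of 0.59 (0.45 to 0.73) and −0.15 (−0.32 to 0.03). The sequence before its start site (chr16:21787835-21788084, minus strand) holds 2 GC boxes and 1 CCAAT box, and is shown because no other peroxisomal member with over 100 counts in every library changed as much at 48 h.
Ehhadh: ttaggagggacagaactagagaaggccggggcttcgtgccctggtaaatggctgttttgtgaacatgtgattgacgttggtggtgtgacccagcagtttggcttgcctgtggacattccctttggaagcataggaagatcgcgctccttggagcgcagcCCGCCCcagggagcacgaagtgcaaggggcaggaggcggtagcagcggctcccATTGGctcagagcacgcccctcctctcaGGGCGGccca

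*Acaa1b*, a peroxisomal thiolase on chromosome 9 from 119148023 to 119157093 on the minus strand, was a low-count gene. It had 57 counts without and 148 with butyrate at 48 h, against 81 and 78 at 72 h. Butyrate over untreated was 1.19 (0.75 to 1.67) on the log2 scale at 48 h, then 0.07 (−0.39 to 0.54) at 72 h. It shares 40.0% of its 31-base words with its near copy *Acaa1a*, so that counts may have been split between them. *Acaa1a* itself gave 0.19 (0.08 to 0.31) and −0.01 (−0.14 to 0.12), on 877 to 1396 counts. *Acox3*, an acyl-CoA oxidase for branched chains, was lower at both times, with −0.53 (−0.67 to −0.39) and −0.16 (−0.30 to −0.02). *Crot*, which exports shortened acyl groups as carnitine esters, was likewise lower, with −0.38 (−0.53 to −0.23) and −0.17 (−0.33 to −0.01). *Hsd17b4*, the D-bifunctional enzyme, gave −0.04 (−0.13 to 0.05) at 48 h and −0.24 (−0.34 to −0.15) at 72 h. The oxidase and the carnitine transferase thus went the opposite way to *Ehhadh* at 48 h.

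*Pdk4* encodes a kinase that switches off pyruvate dehydrogenase when fatty acids are burned. It had the lowest mean normalised count of the members over the 4 libraries, though at 72 h *Acaa1b* had fewer counts. *Pdk4* had 49 counts without and 36 with butyrate at 48 h, against 108 and 83 at 72 h. Its log2 fold changes of −0.60 (−1.28 to 0.03) and −0.25 (−0.68 to 0.18) have intervals that include 0, so a difference with butyrate was not detectable at this depth. Both 72 h libraries were above both 48 h libraries.

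The change over time was small in untreated and larger in butyrate-treated colonoids. These values share libraries with the butyrate comparisons and are set beside them only as sizes. In untreated colonoids the median log2 fold change of 72 h over 48 h was −0.03, and 33 of the 37 lay within 0.25 of 0, against 71.6% of all genes. Only *Pdk4* was at least 1.5-fold higher, with 1.07 (0.59 to 1.61), against 3.08% of all genes, and no member was as much lower, against 3.32%. In butyrate-treated colonoids the median was −0.26, against −0.01 for all genes, and 29 of 37 lay below 0, against 51.2%. *Pdk4* was at least 1.5-fold higher there too, with 1.43 (0.88 to 2.06), against 6.63% of all genes. The 4 members at least 1.5-fold lower, against 8.45%, were *Acsl1* with −0.61, *Acaa2* with −0.75, *Ehhadh* with −0.90 and *Acaa1b* with −0.67. Of the 35 members in the depth range, the interval lay below 0 for 24, against 31.8% of genes, and above 0 for 4, against 38.7%.

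**Figure D4:**
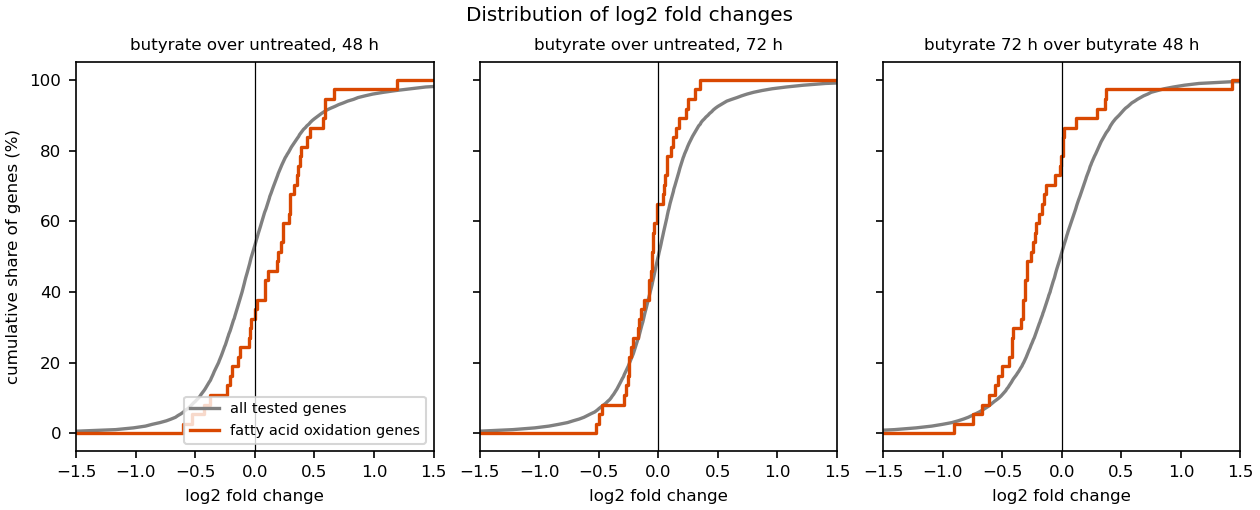
Cumulative share of genes, in percent, against the log2 fold change, for the 37 fatty acid oxidation genes and the 11650 tested genes, in butyrate over untreated at 48 h and 72 h and in butyrate at 72 h over 48 h. The members' curve lies right of the other around its median at 48 h (0.19 against −0.03), close to it at 72 h, and left of it between the butyrate libraries (−0.26 against −0.01).

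The difference between the change with butyrate at 72 h and that at 48 h was negative, with its counting interval below 0, for 20 of the 35 members in the depth range, against 26.4% of genes. It was positive with its interval above 0 for 4, *Acsl4*, *Acsl5*, *Eci2* and *Acox3*, against 32.9%. Within the depth range the largest negative differences were −0.84 in *Acaa2*, −0.74 (−0.96 to −0.52) in *Ehhadh*, −0.72 (−0.96 to −0.48) in *Acsm3* and −0.62 (−0.76 to −0.48) in *Slc25a20*. *Cpt1a* followed with −0.61 (−0.72 to −0.49), *Hadh* with −0.59 (−0.68 to −0.50) and *Acads* with −0.53 (−0.67 to −0.40). Outside the range, the low-count gene *Acaa1b* gave −1.12 (−1.75 to −0.49). A change of sign, with the interval above 0 at 48 h and below 0 at 72 h, was found in 5 members, *Acsl1*, *Acsl3*, *Cpt1a*, *Hadh* and *Acaa2*, against 5.63% of genes of the depth range. The opposite course was found in 1, *Eci2*, against 7.56%.

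Most markers of differentiated colonocytes moved alongside. The 8 genes of the list include the carbonic anhydrases *Car1* and *Car4* and the chloride exchanger *Slc26a3*. Together they gave 33247 normalised counts without and 65176 with butyrate at 48 h, against 50542 and 31262 at 72 h. *Car1* made up most of each sum, with 20390.2 and 44919.6 at 48 h, against 34634.5 and 18849.9 at 72 h. *Aqp8* gave log2 fold changes of only 0.08 (−0.10 to 0.26) and −0.03 (−0.18 to 0.12). At 48 h 5 of the 8 were at least 1.5-fold higher, against 8.94% of all genes, with a list median of 0.85. At 72 h the median was −0.39, with 1 higher, against 5.88% of all genes, and 2 lower, against 5.13%. *Ceacam20* alone was past 1.5-fold in the same direction at both times, with 0.99 and 0.70. None of the 8 was at 0 counts in any library. The 5 measured stem cell markers had medians of −0.14 and 0.62 but did not share a direction at 48 h, with −0.94 in *Lgr5*, −0.31 in *Smoc2*, −0.14 in *Axin2*, 0.16 in *Sox9* and 0.19 in *Ascl2*. At 72 h *Sox9* alone was negative, with −0.15. Goblet cell markers had medians of −0.18 and −0.83. At 48 h 2 of the 6 were at least 1.5-fold higher, *Tff3* with 0.77 and *Clca1* with 0.61, and none was as much lower, against 6.43% of all genes. At 72 h 5 were lower, against 5.13% of all genes. Of the immune list only *Cd68* was measured above the minimum, with 128 counts without and 1309 with butyrate at 48 h, against 172 and 420 at 72 h. The part of cell composition in the members' differences was not tested.

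Other genes of the pathway were listed separately, 55 in all, of which 44 were measured above the minimum. Their median was 0.16 at 48 h and 0.03 at 72 h. At 48 h 6 were at least 1.5-fold higher and 3 lower, and at 72 h 1 was higher and 2 lower. Of all genes 8.94% were as much higher and 6.43% lower at 48 h, and 5.88% and 5.13% at 72 h. *Fabp2*, the intestinal fatty acid binding protein, was the only gene of the list past 1.5-fold in the same direction at both times, with −0.91 (−1.09 to −0.73) and −1.21 (−1.38 to −1.04).

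The remaining pathway lists had medians nearer to 0 than the members at 48 h. The 27 genes of the citric acid cycle and pyruvate entry had medians of 0.05 and −0.04, with none past 1.5-fold at either time. The 15 genes of fatty acid synthesis had medians of 0.09 and 0.03, with 2 higher at 48 h and 1 at 72 h. The 12 regulators had medians of 0.17 and −0.21. At 48 h 1 of them was at least 1.5-fold higher, *Nr1d1* with 0.76 (0.62 to 0.91), and none was as much lower. The untreated level of *Nr1d1* was 0.85 (0.71 to 1.00) higher at 72 h than at 48 h. At 72 h 1 regulator was at least 1.5-fold lower, *Ppara*, and none was as much higher. *Ppara* encodes a receptor for fatty acids that drives many oxidation genes. It gave 0.35 (−0.04 to 0.75) at 48 h and −1.01 (−1.45 to −0.60) at 72 h, on 69 to 153 counts. The untreated level of *Ppara* was itself 0.65 (0.27 to 1.04) higher at 72 h than at 48 h on the log2 scale. *Pparg* gave 0.26 (0.18 to 0.34) and −0.19 (−0.28 to −0.11). *Ppard* gave −0.21 (−0.30 to −0.12) and −0.39 (−0.49 to −0.30), and these regulators were named after their values were seen.

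**Figure D5:**
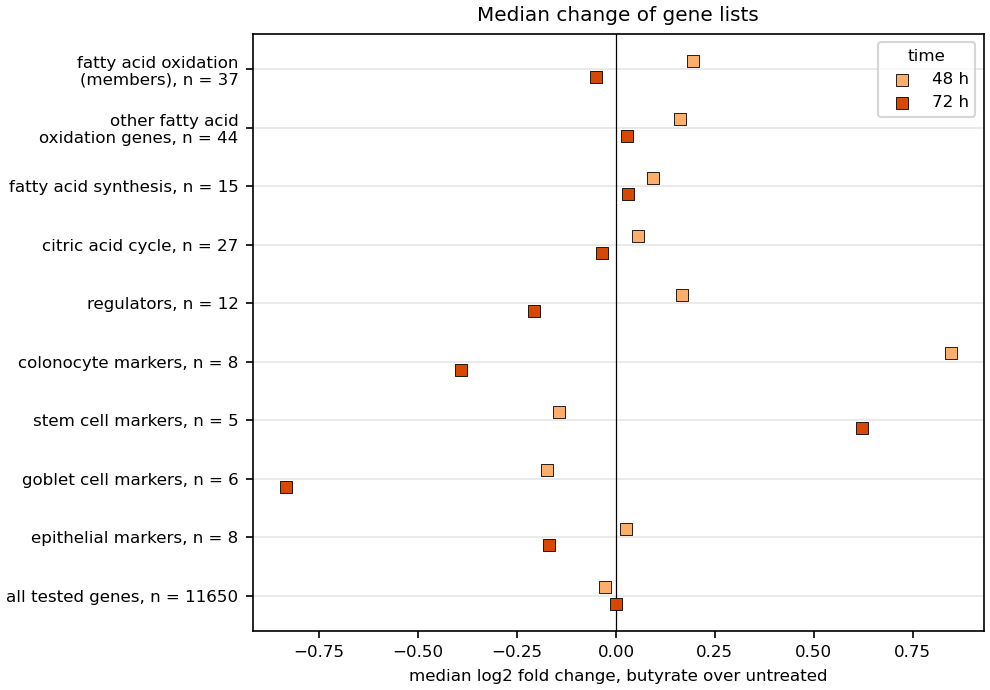
Median log2 fold change of butyrate over untreated at 48 h and at 72 h for the 37 fatty acid oxidation genes, other pathway lists, marker lists and the 11650 tested genes, with the number of genes measured in each list. The members' medians are 0.19 and −0.05, and the colonocyte markers lie farther out, at 0.85 and −0.39. At 72 h the goblet cell markers (−0.83) and stem cell markers (0.62) lie farther from 0 than the colonocyte markers.

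Start-site sequence was compared over the 250 bases before each RefSeq start (GRCm38.p6), for the 32 members with an entry. These members have 34 windows, and a member counts if any of its windows holds the motif. The shares they are set against count single windows, which slightly favours the members. The GC box GGGCGG, searched on both strands, was found in 21 of the 32 (65.6%), against 32.7% of all 32851 windows and 58.3% of the 11649 windows of genes measured above the minimum. The CCAAT box, letters CCAAT, was found in 15 (46.9%), against 33.8% and 35.6%. The nuclear receptor element AGGTCA was found in 4 (12.5%), *Acadm*, *Acadvl*, *Cpt1a* and *Echs1*, against 14.02% and 10.8%. The DR1 element, a direct repeat of it with a base between, was found in none, against 0.0335% and 0.0515%. Only its exact letters were searched, and at such low shares 32 members cannot show whether they differ from other genes. DR1 contains AGGTCA, and no other motif searched contains another. The members' median GC content was 59.6%, against 60.0%. The *Ehhadh* and *Acads* windows printed above both hold GC boxes, the *Acsm3* window none.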

How the data were processed

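Mouse colonoids were profiled by RNA-seq in 4 libraries, 1 per condition, grouped by the sample labels. The authors deposited whole-number counts per gene, quantified with a kallisto-based pipeline (kallisto 0.44.0 and GRCm38.p6 in the submitters' processing notes) and summed to genes with tximport. They are rounded estimates, without normalisation or filter. Reads of near-identical copies may be shared between genes. In these libraries 13979 genes had more than 10 counts in at least 2 libraries, and these gave the size factors of DESeq2 1.42.0. The TMM factors came from edgeR 4.0.16 (R 4.3.3). Other steps were run with scipy 1.17.1, pandas 2.3.3, matplotlib 3.10.9 and numpy 2.4.6 in Python 3.11.15. Log2 fold changes used a pseudocount of 1, intervals were exact Clopper-Pearson at 95%, and the fold limit was 1.5. Names listed more than once, 2 in all, were left out. Counts per kb used GENCODE exon lengths.

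Counts in every library were given for members past 1.5-fold with butyrate and for *Acads*, *Hadha*, *Hadhb* and *Cpt1a*. Further members, and genes of other lists beyond those past 1.5-fold in the same direction at both times, were chosen after their values were seen. Most genes of the other lists are given only in counts and medians. The members and lists were chosen with earlier results of these data known. Calculations were tested on simulated data. Reads carried no molecular identifiers and may repeat a molecule, so the intervals cover counting error alone. Alternatives were TMM, total count and non-mitochondrial total count scaling, a pseudocount of 5, other filters and a 2-fold limit. The exchange of untreated libraries, the depth range of 400 to 7000 and the omission of *Acaa1a* and *Acaa1b* were added after seeing the data.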

Additional observations from a re-analysis of the deposited data

Results flagged for a closer look

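Opposite signs with butyrate at 48 h and 72 h, each with a counting interval that excludes 0, were found in 6 members. The log2 fold changes were 0.22 at 48 h and −0.23 at 72 h for *Acsl1*, 0.083 and −0.12 for *Acsl3*, and 0.36 and −0.25 for *Cpt1a*. They were 0.38 and −0.21 for *Hadh*, 0.33 and −0.52 for *Acaa2*, and −0.21 and 0.35 for *Eci2*. With single libraries the difference between the times was not tested against the spread between cultures. Higher and then lower, with both intervals, was found in 5 of the 35 members in the depth range and in 5.63% of its genes, and lower and then higher in 1 and in 7.56%.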

How the results depend on the processing

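No paired analysis was possible within a comparison because its groups share only 1 replicate number. A model over both times with time as a block was not run. The members' median log2 fold change at 48 h lay between 0.18 and 0.21 under every alternative, and that at 72 h between −0.07 and 0.0006. The count of members at least 1.5-fold higher at 48 h, 4 with size factors, was 2 with TMM scaling, 2 with total counts without the mitochondrial genome and 1 at a limit of 2-fold. These scalings move *Acads* and *Ehhadh*, which lie at the limit. The count of members lower at 48 h, *Pdk4* alone, was 0 with a pseudocount of 5 and 0 at 2-fold. The count higher at 72 h was 1, *Pdk4*, in place of 0 when the untreated 48 h library replaced that of 72 h, an exchange chosen after seeing the data. Of 592 other single-gene values under the planned scalings and pseudocount, 587 moved by less than their counting interval, 5 moved by more (untreated 72 h over 48 h, total count scaling). The sign turned in 16 of the 592, in each case for a value whose counting interval included 0. With the exchanged untreated libraries 39 of 74 moved by more and 9 changed sign, among them *Pdk4* at 72 h, from −0.25 to 0.83, and *Acss1* at 72 h, from 0.18 to −0.02, the only one whose interval had excluded 0.

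A single library per condition limits these comparisons. Differences between cultures, passages or preparations cannot be separated from butyrate or time. The half-width of the counting interval at 72 h had a median of 0.12 on the log2 scale and ran from 0.054 to 0.47 among the members, so smaller differences could not be seen.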
